A study of Arabidopsis thaliana with 9 samples.

Results

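In 10-day dark-grown Arabidopsis seedlings, 118 genes were set apart in the line sps1 while the line L17 stayed near wild type: 38 were higher in sps1 and 80 were lower. Each is given here by the probe set that met the rule, a group of short probes on the array. Eligible were the 13348 probe sets that name exactly 1 gene, which cover 13192 genes, after leaving out plastid and mitochondrial genes and the symbols starting with CYP or UGT. A gene entered the set when its mean log2(signal + 16) in sps1 lay at least 1 above both other lines, or at least 1 below both. In addition, all 3 sps1 arrays had to lie on one side of all 6 others, and the L17 mean had to lie within 0.5 of the wild type mean. All 3 comparisons between lines and all 9 arrays were used: the members were chosen by their differences between lines and by the separation of the sps1 arrays. Their values are therefore given below as descriptions and without a test.

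The series measured total RNA of whole seedlings germinated and kept in the dark on plates for 10 days, with biotin-labelled RNA on one-colour Affymetrix arrays, 3 arrays per line. The lines were wild type (Col-0), L17, which the labels call a phyA' line, and sps1, and the labels give Col-0 as the genetic background of every sample. No treatment was applied before harvest. What the lines L17 and sps1 carry is not stated in the labels, nor whether each is a single transformant, nor whether the 3 arrays of a line came from separate sets of plants, so the spread between arrays may be technical.

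A seedling that grows in the dark elongates its hypocotyl, keeps its cotyledons closed and lives on seed reserves, and its plastids stay etioplasts. Phytochrome A is the light-labile photoreceptor that accumulates in such seedlings and is degraded once they reach light. Most members are given in the files by a locus number only, and the few with names have varied roles, described below gene by gene.

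The deposited signals were already on one scale, with a median of 137.6 to 155.0 per array. The third wild type array stood apart: its mean correlation with the other wild type arrays was 0.954, while the 3 L17 and the 3 sps1 arrays correlated within their lines at 0.981 to 0.984. The summed signal of the 5 measured heat shock genes was 28538 in that array, where the lowest wild type array had 664, L17 had 637 to 783 and sps1 had 774 to 1108. Part of the lower members, among them GRX480, APS3, BGLU28 and TAAC, were also highest in that array, and whether the 2 are connected was not tested. For part of the genes whose results rest on the array, values are given with and without it. The ratio of the 3' to the 5' ubiquitin control probe sets, a sign of RNA or labelling quality, was 1.797 to 1.96 for wild type, 2.24 to 2.43 for L17 and 2.41 to 2.53 for sps1, and a second such pair gave 0.931 to 1.27, 1.06 to 1.27 and 1.06 to 1.46. Its part in the differences below was not tested. PORB, a protochlorophyllide reductase that is abundant in etiolated seedlings, lay at the 96.1 percentile of mean signal over all arrays. It differed between lines and averaged 2043 ± 596 for wild type, 4576 ± 572 for L17 and 4248 ± 572 for sps1 (SD, n = 3). Of 7 genes listed for etiolated seedlings, it was the only 1 matched by name.

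Among the 38 higher members the median of the line means was 43.6 signal units for wild type, 38.8 for L17 and 195 for sps1. Among the 80 lower members it was 282 for wild type, 255 for L17 and 53.2 for sps1. The higher members were mostly weakly detected outside sps1. The lower members mostly lay above the median wild type signal of all eligible probe sets, 106. The rule itself shaped these levels. A lower member needs signal in wild type and L17 that can be lost in sps1, and a higher member has less signal there than in sps1. The members and all eligible probe sets are therefore not alike, and nothing is read from this contrast. In whole seedlings, fewer cells of a type and less RNA per cell cannot be told apart.

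The size of the smaller of the 2 differences of a member, on the log2(signal + 16) scale, had a median of 1.28 among higher and 1.47 among lower members. Of the members 32.2% were higher, against 45.2% after quantile normalization and 47.4% after median centring of each array. The smaller difference reached 2 or more in 7 higher and 11 lower members and stayed under 1.5 in 26 and 43. The median difference over all eligible probe sets was -0.01 from wild type and -0.02 from L17. The gap between the nearest sps1 array and the nearest array of another line ranged from 0.099 to 2.89 among higher members and from 0.0184 to 4.24 among lower members. That gap was at least 1 in 13 higher and 30 lower members and under 0.25 in 4 and 8. Of all eligible probe sets, 5.88% had the 3 sps1 arrays above all others and 6.38% had them below. The median SD over 3 arrays, on the log2 scale, was 0.33 for wild type, 0.26 for L17 and 0.21 for sps1 among higher members, and 0.30, 0.20 and 0.25 among lower members.

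**Figure D1:**
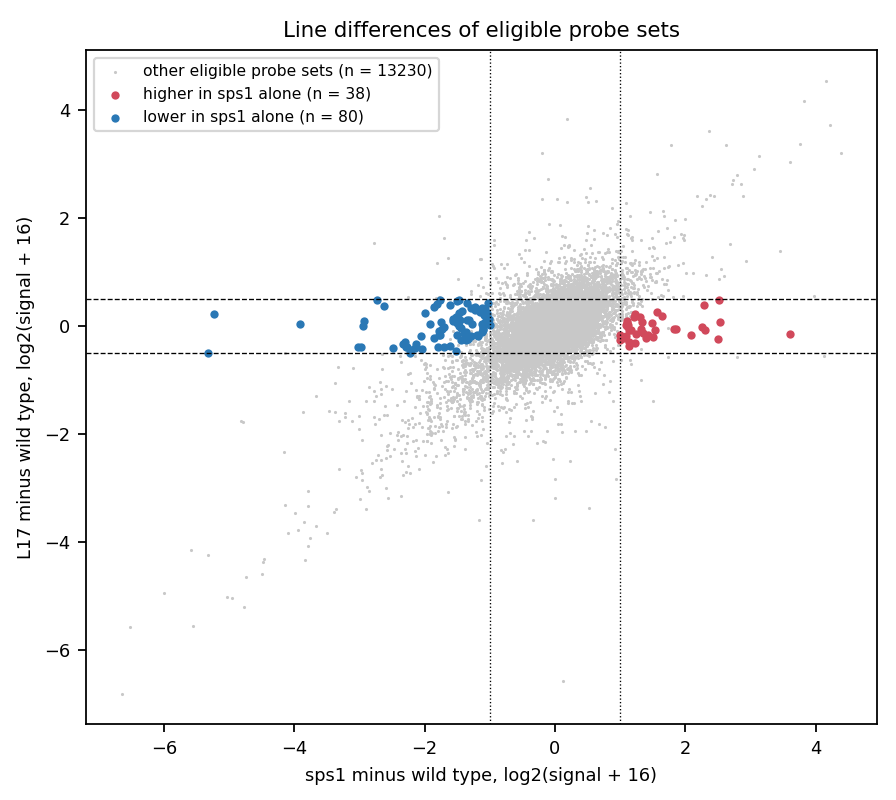
Each point is 1 eligible probe set, with sps1 minus wild type on the x axis and L17 minus wild type on the y axis, both as differences of mean log2(signal + 16) over 3 arrays. Dotted lines mark -1 and 1 and dashed lines -0.5 and 0.5. The 38 higher members (red) and 80 lower members (blue) lie within the dashed band, where the rule placed them, and the lower members extend farther from 0 than the higher ones.

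In limma with Benjamini-Hochberg adjustment over 22746 probe sets, 32 of the 38 higher members were called higher in sps1 than in wild type, against 5.9% of eligible probe sets, and 73 of the 80 lower members were called lower, against 7.27%. Against L17 the calls were 30 of 38, with a background of 2.91%, and 67 of 80, with a background of 3.39%. Since the rule used these same contrasts, nothing is read from those counts. The direction of the background rests on the scaling: over all probe sets 1519 were called higher and 1806 lower in sps1 than in wild type, against 1846 and 1631 after quantile normalization and 2240 and 1481 after median centring. Between L17 and wild type 1 member, AT1G64680, was called, against 10.3% of eligible probe sets, a count that the limit of 0.5 on this difference holds down. Its signal was 199.8, 199 and 205 in wild type, 256, 285 and 321 in L17, and 1299, 1245 and 1132 in sps1. Within the allowed range, L17 lay above wild type in 14 and below it in 24 of the higher members, and in 40 and 40 of the lower members.

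The higher member with the largest difference was AT4G19730, which read 4.08, 18.998 and 12.6 in wild type, 6.96, 2.42 and 18.6 in L17, and 391, 326 and 244 in sps1. Its sps1 arrays stood far above all others, with log2 differences of 3.61 from wild type and 3.76 from L17 (SE of the model 0.29). AT5G48350 showed the same kind of pattern at lower signal and read 2.15, 1.52 and 1.95 in wild type, 6.04, 1.55 and 1.35 in L17, and 107, 114 and 53.3 in sps1. In these 2 genes no wild type or L17 array exceeded 18.998, and the sps1 arrays did not overlap them. AT1G10110 read 35.6, 31.9 and 24.6 in wild type, 26.7, 32.2 and 13.6 in L17, and 224, 228 and 294 in sps1. AT1G43040, which RefSeq lists also as SAUR58, a small auxin upregulated RNA, read 27.3, 29.3 and 9.36 in wild type, 7.18, 15.3 and 43.4 in L17, and 172, 194 and 138 in sps1. The 3 L17 arrays of SAUR58 spread widely, yet its lowest sps1 array was above the highest of them. In 5 of the 38 higher members all 6 wild type and L17 arrays lay under 16, the value added before taking logs.

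Several other higher members, though not all, were measurable in every line and stood higher still in sps1. AT5G64110 read 271, 153 and 229 in wild type, 266, 130.4 and 254 in L17, and 1511, 855 and 971 in sps1. AT1G64680, given above, had the highest sps1 mean of those with both differences of at least 2, at 1225 ± 84.9 (SD, n = 3). Both genes thus stayed at moderate signal in L17 and wild type and averaged over 1000 in sps1. AT2G38780 averaged 118 ± 19.9 for wild type, 104 ± 28.7 for L17 and 561 ± 121 for sps1 (SD, n = 3). AT1G52590 averaged 161 ± 21.6 for wild type, 223 ± 70.2 for L17 and 841 ± 45.3 for sps1. AT4G18975 averaged 208 ± 19.1 for wild type, 203 ± 42.7 for L17 and 799 ± 127 for sps1. In these 3 genes the sps1 mean was several times each of the other means. AT4G39970 averaged 94.0 ± 29.8 for wild type, 76.9 ± 11.0 for L17 and 289.6 ± 47.0 for sps1. AT1G10490 averaged 61.3 ± 14.8 for wild type, 71.6 ± 14.5 for L17 and 223 ± 12.8 for sps1. AT1G30760 averaged 598 ± 385 for wild type, 414 ± 35.0 for L17 and 1316 ± 128 for sps1. In AT1G30760 the wild type arrays alone ranged from 172 to 918, and its gap was 0.37 on the log2 scale. AT4G32230, AT5G34920, AT5G18710 and AT1G52060 were dim, with sps1 means of 55.7, 59.989, 37.1 and 54.0. In wild type and in L17 these genes averaged under 16. Across the 38 higher members the brightest line mean ranged from 37.1 to 2310.0 (AT1G30820), was at least 1000 in 6 and was under 100 in 13.

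**Figure D2:**
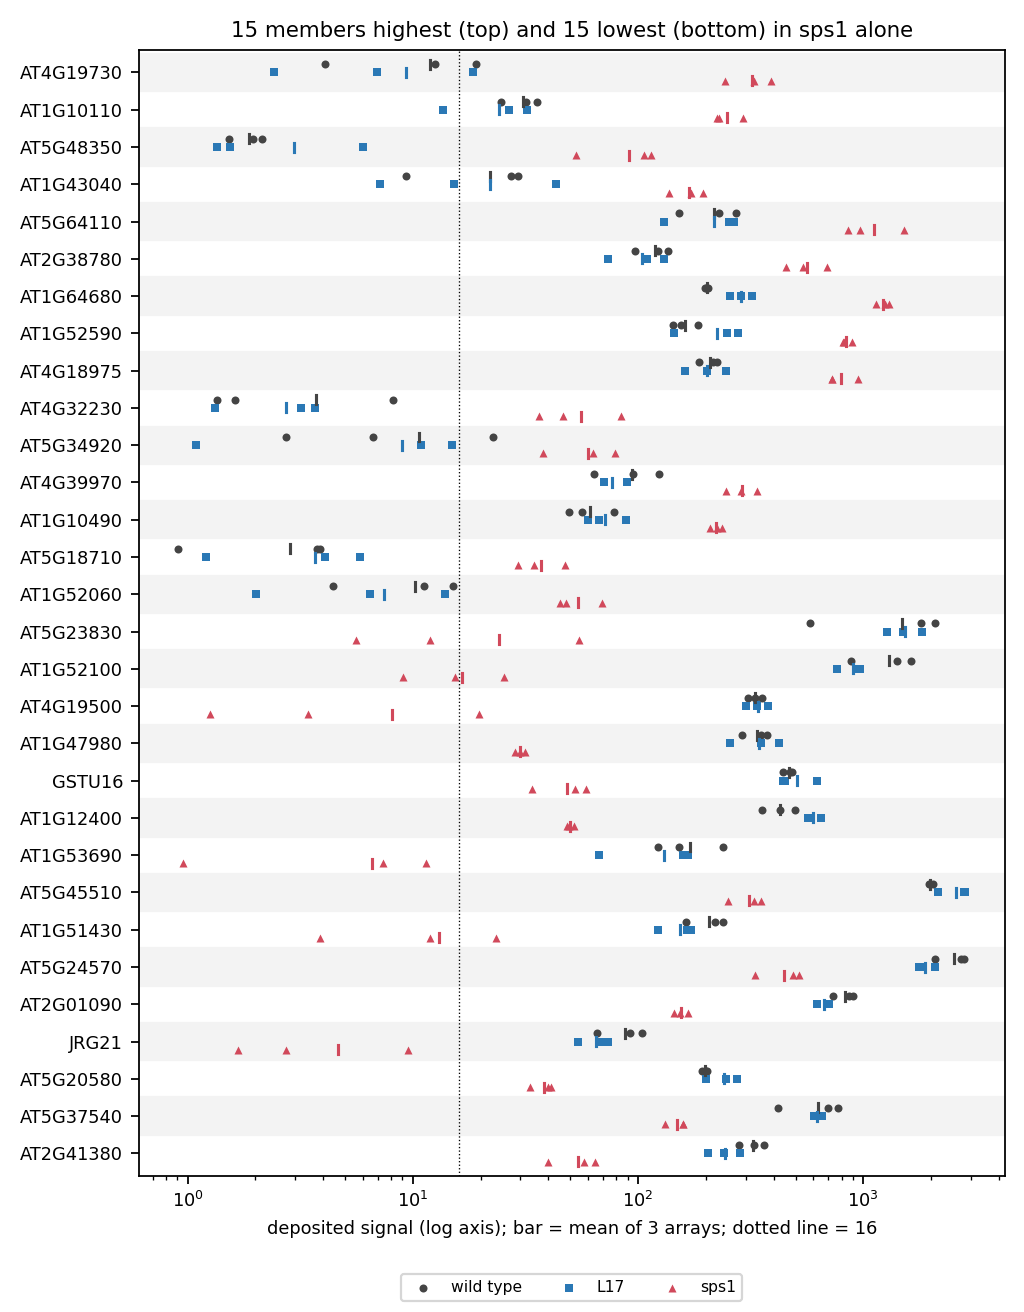
Deposited signal (log axis) of the 15 members highest in sps1 alone, at the top, and the 15 lowest, at the bottom, ranked by the smaller of their differences from wild type and L17. Each symbol is 1 array, the bar is the mean of 3 arrays, and the dotted line marks 16. AT4G19730 lies at 244 to 391 in sps1 and near or below the dotted line elsewhere, and AT5G23830 and AT1G52100 are bright in wild type and L17 and lie near or below the dotted line in sps1, except for 1 sps1 array of AT5G23830 at 54.5.

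Among the lower members, AT5G23830 and AT1G52100 had the largest differences. AT5G23830 read 1802, 2081 and 579 in wild type, 1269, 1821 and 1505 in L17, and 54.5, 11.963 and 5.62 in sps1. AT1G52100 read 1623, 1409 and 877 in wild type, 955, 765 and 970.4 in L17, and 15.3, 25.4 and 9.08 in sps1. Both were bright in all 6 arrays of wild type and L17 and far dimmer in the 3 sps1 arrays, of which 54.5 was the highest value. Their log2 differences were -5.23 from wild type and -5.45 from L17 for the former, with a model SE of 0.54, and -5.32 from wild type and -4.83 from L17 for the latter, with a model SE of 0.26. AT4G19500 read 329, 306 and 354 in wild type, 337, 378 and 302 in L17, and 3.42, 19.6 and 1.26 in sps1. Its wild type and L17 arrays were nearly equal, and its sps1 arrays were all at or near the floor. In 10 of the 80 lower members all 3 sps1 arrays lay under 16.

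AT1G12400 read 424, 499 and 353 in wild type, 575, 571 and 651 in L17, and 51.7, 48.4 and 49.1 in sps1. AT5G45510 read 1968, 2033 and 1949 in wild type, 2838, 2787 and 2139.5 in L17, and 250.3, 352 and 327 in sps1. Both kept a measurable signal in sps1, brighter in AT5G45510, and in neither did the sps1 arrays overlap the others. AT1G47980 averaged 338 ± 43.6 for wild type, 343 ± 82.6 for L17 and 29.9 ± 1.56 for sps1 (SD, n = 3). AT1G53690 averaged 170.5 ± 59.7 for wild type, 130.5 ± 55.2 for L17 and 6.61 ± 5.31 for sps1. AT1G51430 averaged 207 ± 39.2 for wild type, 153 ± 26.7 for L17 and 13.1 ± 9.87 for sps1. The last 2 of these genes averaged under 16 in sps1, and AT1G47980 did not. AT5G24570 averaged 2529.9 ± 385 for wild type, 1881 ± 179 for L17 and 444 ± 99.5 for sps1. AT2G01090 averaged 831 ± 89.5 for wild type, 671 ± 41.6 for L17 and 155 ± 11.2 for sps1. AT5G37540 averaged 628 ± 187 for wild type, 625 ± 26.4 for L17 and 149 ± 15.3 for sps1. These 3 stayed clearly measurable in sps1. AT5G20580 averaged 198 ± 6.11 for wild type, 240.2 ± 37.3 for L17 and 38.1 ± 4.21 for sps1. AT2G41380 averaged 323 ± 40.4 for wild type, 242 ± 38.4 for L17 and 53.9 ± 12.7 for sps1. Across the lower members the brightest line mean ranged from 35.5 (AT5G41860) to 4532 (LEA18), was at least 1000 in 17 and was under 100 in 17.

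Several other bright lower members are given by a locus number only. AT4G25900 read 2225, 2141 and 2091 in wild type, 1711, 1622 and 1644 in L17, and 648, 630.2 and 812 in sps1. AT4G25710 read 1385, 1222 and 1273 in wild type, 1229.7, 1139 and 1220.0 in L17, and 481, 527 and 475 in sps1. AT1G02890 read 1140.4, 1053 and 1079.7 in wild type, 998, 1054 and 1110.4 in L17, and 373, 275 and 313 in sps1. All 3 stayed well above the floor in sps1, with every sps1 array below every other. AT1G28400 averaged 1145 ± 74.3 for wild type, 1437 ± 267 for L17 and 534 ± 28.5 for sps1 (SD, n = 3). AT1G67360 averaged 822 ± 146 for wild type, 938 ± 72.2 for L17 and 378 ± 68.4 for sps1. AT5G26260 averaged 944 ± 508 for wild type, 655 ± 217 for L17 and 228 ± 23.1 for sps1. These too were lower in sps1 but far from lost. AT4G38080 read 451, 263 and 1952 in wild type, 687, 1021 and 766 in L17, and 199, 166 and 211 in sps1, and its wide spread within lines left a gap of 0.30 on the log2 scale. The narrowest gap of all members was in AT1G33260, which read 20.1, 36.7 and 45.7 in wild type, 37.4, 38.4 and 36.8 in L17, and 6.66, 1.64 and 19.6 in sps1.

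Only 1 higher member, CP1, has a gene symbol in the files, against 18 of the lower members. Together 16.1% of members have one, compared with 10.6% of eligible probe sets. RefSeq adds SAUR58 and, for AT5G39990, GlcAT14A. CP1, a papain-type cysteine protease, read 733, 529.6 and 1165 in wild type, 731, 885 and 1128 in L17, and 1926, 1758 and 1801 in sps1. Its sps1 arrays were close to each other and above the scattered arrays of both other lines. Its log2 differences were 1.23 from wild type and 1.01 from L17, which placed it just inside the limit of 1.

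The named lower members are taken below by role, an order made by hand that carries no test. Enzymes of glutathione, redox and sulfur metabolism come first. GSTU16, a tau class glutathione S-transferase that conjugates glutathione to small molecules, read 442, 475 and 483 in wild type, 625, 442 and 449 in L17, and 33.9, 58.9 and 52.4 in sps1. Its sps1 arrays were far below all others, with log2 differences of -2.93 from wild type and -3.02 from L17 (SE of the model 0.19). GRX480, a glutaredoxin that interacts with TGA transcription factors, read 251, 181 and 552 in wild type, 196, 222 and 221 in L17, and 45.8, 63.2 and 46.6 in sps1. The highest wild type array was the third, and the sps1 arrays were below all 6 others. The log2 difference of GRX480 from wild type was -2.20, and -1.77 without the third wild type array. MSRB5, a methionine sulfoxide reductase that repairs oxidised methionine, read 1110.4, 858 and 1232 in wild type, 791, 821 and 633 in L17, and 236, 227 and 182 in sps1. L17 had a log2 difference of -0.50 from wild type, the edge of what the rule allowed, and sps1 differences of -2.22 from wild type and -1.72 from L17.

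APS3, an ATP sulfurylase of the first step of sulfate assimilation, read 117, 149 and 329 in wild type, 157, 219 and 226 in L17, and 31.8, 70.3 and 55.9 in sps1. BGLU28, a beta-glucosidase known for its induction under sulfur shortage, read 15.8, 23.0 and 213 in wild type, 61.1, 80.3 and 85.0 in L17, and 4.52, 4.14 and 14.3 in sps1. In BGLU28 the 2 other wild type arrays lay close to the highest sps1 array, so that its gap was 0.07 on the log2 scale and its wild type mean rested on the third array. Without that array the log2 difference of BGLU28 from wild type was -0.60, and that of L17 from wild type 1.37. APS3 without it had a log2 difference of -1.15 from wild type, and L17 one of 0.53, just outside the rule.

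Another 4 named lower members have roles that differ from each other. JRG21, named as a jasmonate-regulated gene, is an oxygenase that inactivates jasmonic acid by hydroxylation, and read 65.9, 92.4 and 104 in wild type, 68.6, 73.4 and 54.1 in L17, and 2.73, 9.51 and 1.67 in sps1. No sps1 array exceeded 9.51 and no other array was under 54.1, with log2 differences of -2.33 from wild type and -1.99 from L17. ATMPK13, a mitogen-activated protein kinase, read 39.1, 25.8 and 60.1 in wild type, 26.9, 43.5 and 47.0 in L17, and 10.2, 2.66 and 1.63 in sps1. TET4, a tetraspanin of the cell membrane, read 211, 177 and 122 in wild type, 246, 189 and 146 in L17, and 63.4, 36.1 and 45.2 in sps1. EULS3, a lectin of the Euonymus type, read 1697, 1399 and 1071 in wild type, 1113, 1205 and 1078 in L17, and 489, 561 and 513 in sps1. ATMPK13 was dim in every line and TET4 moderate, while EULS3 kept a bright signal in sps1, below all others.

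Proteins known from seeds include the 2 brightest members of the whole set, LEA18 and AtLEA4-1. LEA18 is a late embryogenesis abundant protein, a class that accumulates as seeds dry. It read 5413, 5738 and 2444 in wild type, 3821, 2612 and 3165 in L17, and 1078, 996 and 979 in sps1. AtLEA4-1, of the same class, read 5028, 4709 and 1528 in wild type, 3639.5, 3166 and 3466 in L17, and 1309, 1040.0 and 1149.6 in sps1. In both genes the third wild type array was far below the other wild type arrays, and in AtLEA4-1 it was close to the highest sps1 array. Without that array the log2 differences from wild type were -2.44 for LEA18 and -2.05 for AtLEA4-1, and those of L17 from wild type were -0.81 and -0.51, outside the rule. BETA-VPE, a vacuolar processing enzyme that cleaves seed storage proteins, read 986, 841 and 353 in wild type, 947, 675 and 673 in L17, and 300.2, 327 and 319.7 in sps1. Its gap was 0.10, again set by the third wild type array, without which its log2 difference from wild type was -1.48.

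Transport proteins made up 3 of the named lower members. MTP11, a manganese transporter of the cation diffusion facilitator family, read 1500.0, 1186 and 848 in wild type, 1225, 1309 and 1113 in L17, and 319, 339 and 329.6 in sps1. OCT1, a carnitine and organic cation transporter, read 1139, 1165 and 745 in wild type, 959, 1407 and 1369 in L17, and 501, 434 and 333 in sps1. TAAC, a carrier of ATP and ADP in the thylakoid membrane, read 224, 219.9 and 558 in wild type, 256, 246 and 288 in L17, and 107, 123 and 115 in sps1. The sps1 arrays of MTP11 were nearly equal and well below all others, with log2 differences of -1.75 from wild type and -1.83 from L17. OCT1 had log2 differences of -1.22 from wild type and -1.52 from L17. TAAC had log2 differences of -1.29 from wild type and -1.09 from L17. Without the third wild type array the difference of TAAC from wild type was -0.86 and the gene left the set.

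The remaining names belong to sugar metabolism and other enzymes. ATSPS4F, a sucrose phosphate synthase that makes the precursor of sucrose, read 91.2, 81.0 and 129 in wild type, 99.4, 116 and 146 in L17, and 54.0, 36.5 and 30.9 in sps1. Its log2 difference from wild type was -1.04, and -0.87 without the third wild type array. GlcAT14A, a glucuronosyltransferase that acts on arabinogalactan of cell wall proteins, read 283, 279 and 265 in wild type, 340.1, 369 and 361 in L17, and 68.0, 150.5 and 121 in sps1 (AT5G39990). Here sps1 array 1 was the lowest, and L17 stood above wild type in all 3 arrays. PPR336, a pentatricopeptide repeat protein of a family that binds organelle RNA, read 309, 344 and 306 in wild type, 392, 479 and 432 in L17, and 142, 68.2 and 158 in sps1. All 3 lines were separate, with L17 the highest.

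2A6, of the family of 2-oxoglutarate dependent dioxygenases, is the one member with a further probe set naming the gene. The probe set in the set read 303, 308 and 208 in wild type, 251, 268 and 201 in L17, and 85.8, 122 and 119.7 in sps1. The other read 315, 339.8 and 157 in wild type, 148, 204 and 163 in L17, and 199, 231 and 267 in sps1, with log2 differences of -0.15 from wild type and 0.40 from L17. The lines overlapped in the second probe set, and the 2 probe sets of 2A6 thus disagree.

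**Figure D3:**
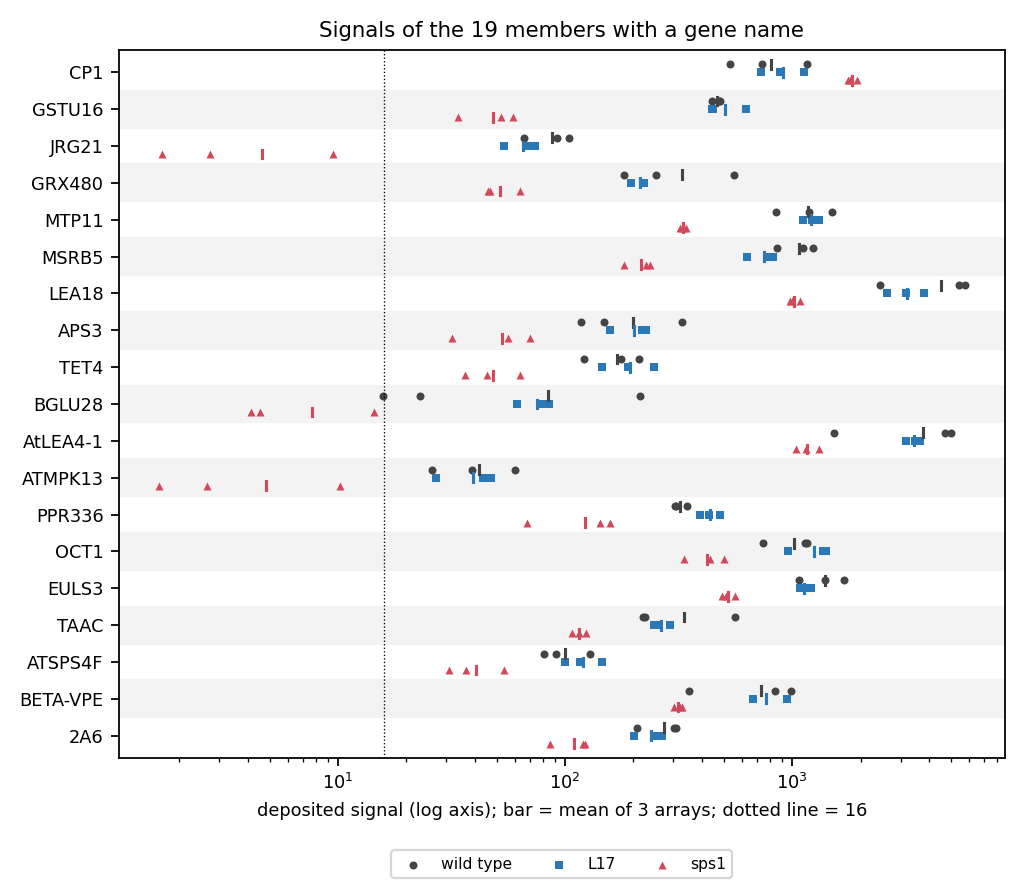
Deposited signal (log axis) of the 19 members that carry a gene symbol. Each symbol is 1 array, the bar is the mean of the 3 arrays of a line, and the dotted line marks 16. In CP1 the sps1 arrays lie above the others and in the other 18 genes below them, with the narrowest separations in BGLU28 and BETA-VPE.

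The threshold of 1 cut through a continuous range. Just inside it among higher genes were AT1G64430, whose smaller difference was 1.001, AT2G16190 with 1.006 and CP1 with 1.008. Just outside were AT1G12250 with 0.993, AT5G28110 with 0.991 and AT1G44414 with 0.980. AT1G64430 averaged 185 ± 8.56 for wild type, 152 ± 13.9 for L17 and 386 ± 21.4 for sps1, and AT1G12250 averaged 255 ± 52.2 for wild type, 231 ± 54.0 for L17 and 516 ± 23.1 for sps1 (SD, n = 3). Among lower genes AT4G01700, AT5G04020 and AT1G63310 were just inside with smaller differences of 1.001, 1.003 and 1.008. AT1G78530, AT4G39930 and AT1G08670 were just outside with 0.998, 0.990 and 0.986. AT5G04020 averaged 185 ± 59.0 for wild type, 184 ± 33.2 for L17 and 81.6 ± 5.59 for sps1, and AT1G08670 averaged 288 ± 83.7 for wild type, 368 ± 39.9 for L17 and 134 ± 13.6 for sps1. The levels and SDs on the 2 sides of the limit overlapped.

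Leaving out the third wild type array kept 32 of the 38 higher and 59 of the 80 lower members. Without it the sps1 minus wild type difference came to under 1 in 5 higher and 12 lower members, and L17 moved out of the allowed range in 3 and 13. APS3, CP1, TAAC, ATSPS4F, AtLEA4-1, LEA18 and BGLU28 were the symbols lost. AT1G52100 left the set because L17 then had a log2 difference of -0.75 from wild type, while sps1 had one of -5.58. AT5G24570, AT1G53690, AT5G26260 and AT3G58450 left it in the same way, with L17 at -0.55, -0.58, -0.94 and -0.61 and sps1 at -2.61, -3.22, -2.35 and -2.41. In AT1G30760, AT4G38080, AT1G33260, AT1G67360, AT1G74460, AT3G62930 and AT2G16190 the sps1 difference from wild type fell short of 1, at 0.69, -0.80, -0.85, -0.96, -0.81, 0.64 and 0.83. The same held for AT5G04020, AT4G01700, AT1G13050, AT2G32415, AT1G17410 and AT4G10950, at -0.78, -0.60, -0.77, -0.90, 0.71 and 0.87. The farthest move was in AT1G68850, which read 33.7, 32.6 and 318 in wild type, 65.4, 87.2 and 87.9 in L17, and 27.8, 23.0 and 30.0 in sps1. Its log2 difference from wild type went from -1.12 to -0.20, with L17 at 0.96. TAAC, ATSPS4F and BGLU28 also fell short of 1, as given above, and AT5G16460 left the set through L17, at -0.53. On the scale of signal + 16, that array lay over 2-fold above the mean of the remaining pair in 2 higher and 10 lower members and over 2-fold below it in 3 and 7. Over 9 repeats that each left out 1 array, 22 higher and 36 lower members met the rule every time. Over 4 other scalings and pseudocounts, 14 and 38 did, and 12 and 24 did under all 13 settings. Of the symbols, GSTU16, TET4, MTP11, PPR336, OCT1 and EULS3 met the rule under all 13.

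The members' places on the chromosomes were set beside those of the eligible probe sets, since the rule did not use position. Chromosome 1 held 45 members, 38.1% of them, against 25.9% of eligible probe sets, and chromosome 3 held 7, 5.93% against 20.5%. Chromosomes 2, 4 and 5 held 19, 22 and 25 members, 16.1%, 18.6% and 21.2%, against 16.4%, 14.7% and 22.5%. When genes were ordered along chromosome 3 and cut into 5 runs of equal numbers of annotated genes, the first 3 runs held 0, 1 and 0 members among 616, 564 and 435 eligible genes. Cut in the same way, the third run of chromosome 2 also held 0 members, among 473. The densest run on chromosome 1 was the fourth, with 14 members among 670, or 2.09%. The fifth run of chromosome 2, with 10 among 491, and the second of chromosome 4, with 7 among 347, were about as dense, at 2.04% and 2.02%. The 7 members on chromosome 3 were JRG21, AT3G58450 and AT3G43960, which were lower, and AT3G48200, AT3G44020, AT3G62930 and AT3G19800, which were higher.

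These shares are a description and were given no test, since the same arrays chose the members. Under the alternatives the share on chromosome 3 ranged from 1.41% at a pseudocount of 64 to 11.5% at a pseudocount of 1. Genes set apart in L17 alone by the same rule, 44 higher and 54 lower, lay to 37.1% on chromosome 1, 4.12% on chromosome 2 and 6.19% on chromosome 3. Genes set apart in wild type alone, 253 higher and 68 lower, lay to 23.1%, 16.8% and 22.7% on these chromosomes. The 3 sets share all 9 arrays. Of eligible probe sets called between sps1 and L17, 11.4% lay on chromosome 3, and of those called between sps1 and wild type, 18.7%.

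**Figure D4:**
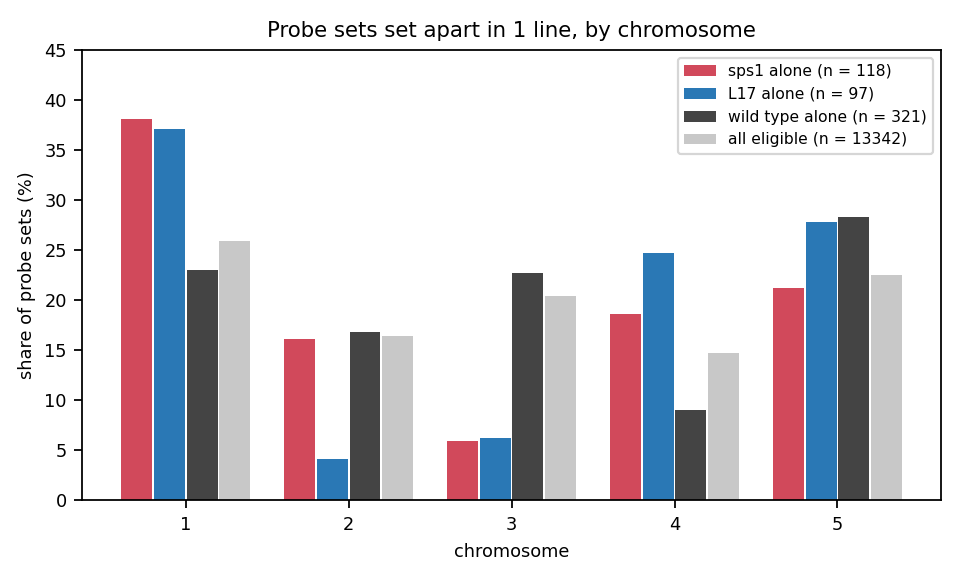
Share of probe sets on each of the 5 chromosomes, in percent, for genes set apart in sps1 alone (n = 118), in L17 alone (n = 97 with a chromosome), in wild type alone (n = 321) and for all eligible probe sets (n = 13342). Chromosome 3 holds about 6% of the sps1 and L17 sets and over 20% of the other sets.

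In gene order, 15 of the 118 members, 12.7%, had another member within 10 genes, where 7.17% of all 13187 placed genes had a member that near. That background covers all chromosomes alike, whereas members were denser on chromosome 1, which held most of the pairs below. The shares are therefore not alike, and nothing is read from their difference. No 2 members were adjacent. The 15 genes formed 8 pairs, and the members of a pair differed in the same direction in 3 and in opposite directions in 5. The same-direction pairs were AT1G30760 with AT1G30820, AT1G72940 with AT1G73040 and AT2G41730 with AT2G41800. Opposite pairs included AT1G52060, higher in sps1, with AT1G52100, which was nearly lost there, and PPR336, lower, with AT1G61930, higher. The other opposite pairs were AT1G12790 with AT1G12850, AT1G30820 with AT1G30890, and AT3G43960 with AT3G44020.

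Values of these paired genes show how far such neighbours differed. AT1G52060 read 11.3, 4.42 and 15.020 in wild type, 2.02, 13.966 and 6.46 in L17, and 47.8, 69.3 and 45.045 in sps1. It was near the floor outside sps1, whereas AT1G52100, with 5 genes between them, was near the floor only in sps1. AT1G30820 read 922, 953 and 1337 in wild type, 1048, 1077 and 1022 in L17, and 2601, 2184 and 2144 in sps1. AT1G30890 read 642, 1126 and 981 in wild type, 1076, 1257 and 1063 in L17, and 367, 414 and 432 in sps1. These neighbours were both bright in every line, the first higher and the second lower in sps1, with no overlap. AT1G72940 averaged 84.6 ± 63.0 for wild type, 50.4 ± 3.08 for L17 and 4.02 ± 1.95 for sps1 (SD, n = 3). AT1G73040 averaged 217 ± 11.6 for wild type, 178 ± 22.8 for L17 and 70.3 ± 9.48 for sps1. Both were lower in sps1, AT1G72940 down to the floor. AT2G41730 averaged 1154 ± 227 for wild type, 828 ± 134 for L17 and 387 ± 39.9 for sps1. AT2G41800 averaged 59.3 ± 19.1 for wild type, 72.0 ± 11.8 for L17 and 11.1 ± 5.31 for sps1. The former kept a clear signal in sps1 and the latter did not. AT1G61930, the higher partner of PPR336, averaged 16.6 ± 12.002 for wild type, 12.013 ± 4.25 for L17 and 57.2 ± 8.06 for sps1. AT1G12790 averaged 235 ± 25.005 for wild type, 188 ± 15.1 for L17 and 534 ± 46.3 for sps1, and its lower partner AT1G12850 averaged 892 ± 86.9 for wild type, 1072 ± 28.8 for L17 and 393 ± 6.87 for sps1. AT3G44020 averaged 14.8 ± 2.36 for wild type, 15.9 ± 8.06 for L17 and 51.3 ± 6.89 for sps1, and its lower partner AT3G43960 averaged 263 ± 94.9 for wild type, 349 ± 70.7 for L17 and 116 ± 12.6 for sps1. In each of these 3 pairs the partners differed in opposite directions in sps1.

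Of the 105 measured genes directly beside a member and no members themselves, limma called 11 higher and 7 lower in sps1 than in wild type, 17.1% against 13.2% of eligible probe sets. AT5G45500, beside the lower member AT5G45510, averaged 2089 signal units for wild type, 2.85 for L17 and 4.95 for sps1. It was thus lost in both lines, while AT5G45510 was lower in sps1 alone. AT1G52600, beside the higher member AT1G52590, averaged 1065 for wild type, 1383 for L17 and 2434 for sps1, in the same direction as its neighbour. AT1G74470, beside the lower member AT1G74460, averaged 3973, 7409 and 9664 in these lines, in the opposite direction. These 3 genes were chosen after their values were seen.

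By annotation, 1 of the 118 members, AT5G34920, was a pseudogene, 0.85% against 7.46% of eligible probe sets. The median gene length in RefSeq was 1605 bases among higher and 1872 among lower members, against 2123 among eligible probe sets. Probe sets under 16 in every line could not meet the rule but are part of the eligible ones. The members and this background are therefore not alike, and nothing is read from these contrasts. The probe sets of AT5G34920, AT2G07718 and AT2G41730 carry an ending that marks probes shared between transcripts, so their signals are uncertain as to the gene.

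The 27 lists of genes of known function held 776 genes. Of these, 115 could be matched by name to a probe set naming 1 gene, and only those list genes are called measured. Unmatched genes may still lie on unnamed probe sets. The matched genes were 5 of 28 on the salicylate and defence list, 4 of 25 on the seed list and 3 of 26 on the sucrose list. For green tissue they were 7 of 30, and for flower and pollen 1 of 17. A measured gene stood on 25 lists, and 3 of these held a member. Over all lists limma called 35 of 115 genes in sps1 against wild type, 14 higher and 21 lower. The 3 list members, which the rule chose on this same contrast, were all among the lower. Without them, 14 of 112 genes were called higher and 18 lower, where 14.6% of all probe sets were called. List genes were taken by their brightest probe set and the lists written with earlier results known, so these shares are not alike. The salicylate and defence list held GRX480 and 4 other measured genes, of which 2 were called lower, 0 higher and 2 neither way. CHI, a chitinase, read 1702, 1195 and 3119 in wild type, 193, 172 and 154 in L17, and 106, 88.1 and 78.2 in sps1. Its log2 difference from wild type was -4.14 (limma adjusted p = 9.81e-05), and its L17 arrays were also far below wild type. PDF1.4, a defensin, averaged 605 ± 109 for wild type, 1442 ± 118 for L17 and 264 ± 51.0 for sps1 (SD, n = 3), with a log2 difference of -1.15 (limma adjusted p = 0.00389). WRKY53, a transcription factor of defence and leaf ageing, averaged 129.8 ± 107 for wild type, 96.1 ± 40.2 for L17 and 42.7 ± 6.80 for sps1 and did not pass (limma adjusted p = 0.148). Against L17, 1 of these 4 genes was called lower, PDF1.4.

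The seed list held LEA18 and 3 other measured genes, of which 1 was called lower, 1 higher and 1 neither way. LEA4-5, a further late embryogenesis protein, averaged 1561 ± 306 for wild type, 607 ± 99.3 for L17 and 461 ± 150.0 for sps1. It was lower in sps1 than in wild type by a log2 difference of -1.76 (limma adjusted p = 0.00302). Between sps1 and L17 it was not called (limma adjusted p = 0.428), and L17 was itself called lower than wild type, by -1.33 (limma adjusted p = 0.0137). OLEO3, an oleosin that coats oil bodies, averaged 921 ± 95.6 for wild type, 2212 ± 188 for L17 and 1418 ± 69.5 for sps1 and was higher by 0.62 (limma adjusted p = 0.0159), a call lost without sps1 array 1 (0.0561) or array 2 (0.0528). Against L17, OLEO3 was called lower in sps1, by -0.63 (limma adjusted p = 0.0249), a call that held in 10 of 17 alternative settings. PAP85, a seed storage protein of the vicilin type, ranged from 186 to 2234 between wild type arrays and did not pass (limma adjusted p = 0.528). The summed signal of the 4 seed genes was 4654 to 10366 over wild type, 6058 to 6600 over L17 and 2923 to 3277 over sps1 arrays, and without LEA18 it was 2209 to 4953, 2779 to 3446 and 1844 to 2281. Whether seed material had a part in the lower members was not tested.

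The sucrose list held ATSPS4F and 2 other measured genes. SWEET11, a sucrose exporter, averaged 13443 ± 2021 for wild type, 10038 ± 1199 for L17 and 8462 ± 284 for sps1, lower than in wild type by a log2 difference of -0.66 (limma adjusted p = 0.0222). That call did not hold when any sps1 array or wild type array 1 or 2 was left out, with adjusted p up to 0.0699, nor with the replicate number as a block (limma adjusted p = 0.0535). Against L17, SWEET11 was not called (limma adjusted p = 0.445). SWEET13, of the same family, was near the floor in all lines (limma adjusted p = 0.68). Of the markers for other material, the 7 measured genes of green tissue summed to 21803 to 24575 over wild type, 18735 to 22178 over L17 and 31879 to 33744 over sps1 arrays, with 4 called higher and 1 lower against wild type, where 5.9% and 7.27% of eligible probe sets were. Against L17, 4 were called higher and 0 lower, where 2.91% and 3.39% were. Their part in the members' differences was not tested. The single measured flower and pollen gene, AMS, lay at the 14.5 percentile of mean signal.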

How the data were processed

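RNA of whole seedlings of 3 lines was measured on 9 one-colour Affymetrix arrays, 3 per line. The deposited table gives linear intensity values of 22810 probe sets, 1 for each array. The submitters' processing notes name GCOS. How probes were summarised is not given in the sources used here. Intensity as deposited had a mean of 500.0 on every array after trimming 2% at each end, and were used without further scaling. Lines and array numbers came from the sample titles, and the number of arrays limits the precision.

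The 64 control probe sets were left out. Differences are between means of log2(signal + 16), and come out too small for dim genes. Of 22746 probe sets 13513 name 1 gene, 503 name several and 8730 have no gene name here. RefSeq (TAIR10.1) holds 13484 of the first kind and was used for names, gene length and gene order only. Then 92 organelle probe sets and 73 with CYP or UGT symbols were left out. Backgrounds and list genes were called with limma 3.58.1 in R 4.3.3 on all 9 arrays with 3 lines and no block, at a Benjamini-Hochberg adjusted p under 0.05. The procedure was tested on simulated data.

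The members and the gene lists were chosen with earlier results of these data known. Named in the text are, per direction, the 15 members with the largest smaller difference, list members, those next to the threshold, members near each other in gene order and those with several probe sets, and up to 3 further genes per list that holds a member. The other symbol-named members, 8 bright or narrowly separated ones, those on chromosome 3, those that left the set without the third wild type array and those at the extremes of a range were named after their values were seen. Alternatives were pseudocounts of 1 and 64, quantile normalization, median centring, other limits of the rule, a replicate block, 2 lines per fit and leaving out each array. Promoter and protein sequences were not analysed here.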

Additional observations from a re-analysis of the deposited data

How the results depend on the processing

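The count of higher members was 38 and moved to 22 at a pseudocount of 64 and to 12 when a difference of 1.5 was required. The count of lower members was 80 and moved to 136 at a pseudocount of 1, 49 at a pseudocount of 64, 44 when L17 had to lie within 0.25 of wild type, and 37 when a difference of 1.5 was required. At a pseudocount of 1 there were 55 higher members. After median centring 55 were higher and 61 lower, and after quantile normalization 52 and 63, so the imbalance between directions rests on the scaling. Median centring moved the median log2 difference of all probe sets between sps1 and wild type from -0.01 to 0.10. Leaving out 1 array at a time gave 36 to 49 higher and 77 to 103 lower members. Of 3304 member differences recomputed, 194 moved by 1 SD or more. Part of the 3304 could not move. Leaving out an array of one line does not alter the difference between the remaining lines, and the limit on the brightest line changes no signal. The share that moved is therefore no measure of stability. The SD was the largest of a member's 3 within-line SDs on the log2 scale, a wide measure that reached 1.60 for wild type among lower members. No sign change was possible for most of these settings, since the rule had already separated the sps1 arrays.

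Probe sets called by limma between sps1 and wild type numbered 3325 and, with 1 array left out, 2087 (without sps1 array 3) to 3406. Between sps1 and L17 they numbered 1560, and 719 (without L17 array 2) to 2626 (without wild type array 3). Between L17 and wild type they numbered 2601, 1437 (without L17 array 2) to 2596, and 1611 when sps1 was left out of the model. List genes called between sps1 and wild type numbered 35, and 21 (without sps1 array 2) to 34. With the replicate number as a block the counts were 2492, 1013, 1806 and 28 in this order. Arrays of the same number did not deviate together, with correlations from -0.08 to 0.06, so the numbers were not taken as pairs.

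Genes with signals near 16 give only rough sizes of difference, and the rule left out unnamed probe sets.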

Other observations

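The same rule was also applied, on the same 9 arrays, to probe sets outside the eligible ones. It chose these probe sets by the pattern, so nothing further is read from their counts. Of the 8730 unnamed probe sets 35 were higher and 72 lower in sps1 alone, beside 38 and 80 of the 13348 eligible ones. Of the 503 naming several genes 5 were higher and 4 lower. Among plastid, mitochondrial, CYP and UGT genes 0 were higher and 3 lower, namely rpoB, which encodes a subunit of the plastid RNA polymerase, and UGT78D1 and UGT85A5, glycosyltransferases. Without the third wild type array the rule gave 47 higher and 91 lower genes in sps1 alone, 48 and 56 in L17 alone, and 234 and 76 in wild type alone.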
